A study of Mus musculus with 12 samples.

Results

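The 10 genes followed here belong to the neutrophil granule and calprotectin family, and were measured in 12 RNA-seq libraries of mouse bone-marrow derived macrophages. They are Mpo, Elane, Prtn3, Ctsg, Mmp8, Ltf, Camp, Ngp, S100a8 and S100a9, chosen by symbol, and all 10 were found among the 24728 genes of the count table. The macrophages were dTomato+ cells sorted from ex vivo assays, and every library carries the same tissue label, which names bone marrow together with dissociated brain tumor. The 4 groups have 3 libraries each: a Control group, a Myelin Alone group, a Full Tumor group and a group given Tumor without Myelin. A library of each of the 3 numbers mn 957, mn 958 and mn 016 is present in every group. The labels used here do not say what Control macrophages received, how long any exposure lasted, which tumor model supplied the material, what mn stands for, or the age of the animals. It is not stated whether different animals supplied the replicates, so the p-values reflect the scatter among these libraries alone, and that scatter may be technical.

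Neutrophil granules are made in waves while the cell matures in the bone marrow. Primary (azurophil) granule proteins, with myeloperoxidase and the serine proteases, are transcribed at the promyelocyte stage, and granulocyte-monocyte progenitors already hold their mRNA. Specific and gelatinase granule proteins such as lactoferrin and cathelicidin follow at later stages, and the calprotectin subunits S100a8 and S100a9 are abundant cytosolic proteins of mature neutrophils and monocytes. Mature macrophages carry little mRNA for most of these genes.

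The promoters of the primary granule genes are shown first, because these genes moved together in the counts below, and a stretch of the Ngp and S100a8 promoters is shown for the second motif. The sequences are RefSeq promoter windows on GRCm38.p6, available for 10 of the 10 genes, restricted to the 250 bases before the transcription start and trimmed so that no printed base lies in an annotated exon. For Mpo, Elane, Prtn3, Ngp and S100a8 the RefSeq start lies inside the span that the count table gives for the gene. For Prtn3 the printed stretch itself also lies inside that span. Capitals mark GAGGAA, a core of sites bound by the myeloid factor PU.1, in the first 4 sequences, and TTNNGNAA on either strand, the core of C/EBP sites, in the last 2. Each is written 5′ to 3′ on the strand of the gene.
Mpo (chr11:87793534-87793580, plus strand): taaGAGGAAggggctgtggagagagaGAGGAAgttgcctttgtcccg
Elane (chr10:79886197-79886246, plus strand): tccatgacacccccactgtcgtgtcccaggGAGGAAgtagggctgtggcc
Prtn3 (chr10:79879542-79879607, plus strand): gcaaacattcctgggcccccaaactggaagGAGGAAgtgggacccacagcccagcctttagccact
Ctsg (chr14:56102755-56102820, minus strand): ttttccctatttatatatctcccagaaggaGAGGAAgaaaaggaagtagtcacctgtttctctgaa
Ngp (chr9:110419640-110419743, plus strand): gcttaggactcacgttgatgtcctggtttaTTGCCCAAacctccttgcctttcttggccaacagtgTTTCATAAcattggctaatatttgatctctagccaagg
S100a8 (chr3:90668924-90668977, plus strand): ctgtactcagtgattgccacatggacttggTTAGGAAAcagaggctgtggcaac

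GAGGAA was present on the gene's own strand in all 4 primary granule promoters, with 2 matches in Mpo, and on that strand in 12.4% of the 32851 windows of the same length. Searched on both strands, it was found in 7 of the 10 promoters of the family (also Mmp8, Ltf and S100a8) and in 23.3% of all windows. The S100a8 window held 2 such matches on the opposite strand, outside the printed stretch. TTNNGNAA, searched on both strands, was found in 5 of the 10 promoters (Mmp8, Ltf, Ngp, S100a8 and S100a9), in 0 of the 4 primary granule promoters and in 36.8% of all windows. The Ngp window held a further match of TTNNGNAA, 11 to 4 bases before the start and outside the printed stretch. No match of one motif overlapped a match of the other in the 10 windows. These are letter matches and no binding was measured.

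The libraries held 17071673 to 21689624 counts. Levels are given as CPM, counts scaled to the library total after TMM normalization. A gene with no counts could still have up to 3, a floor of 0.142 to 0.182 CPM across the libraries. These floors and all counting intervals cover counting error only, since the reads carry no molecular identifiers. Macrophage genes were abundant in every library, with Csf1r, the M-CSF receptor, at 1169 to 1795 CPM and Adgre1, which encodes F4/80, at 1012 to 2117 CPM. Their level was not alike in the 3 numbers. Summed over 15 macrophage markers, it was 9732 to 13262 CPM in mn 016, 11373 to 15075 in mn 957 and 13502 to 17628 in mn 958. Ly6g, the surface marker of mature mouse neutrophils, was at 0 in 11 of 12 libraries and reached 0.057 CPM in the other. Gfi1, a transcription factor of granulocyte maturation, was also at 0 in 11 of 12. In bulk libraries, fewer cells of a type and less RNA per cell cannot be told apart.

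**Figure D1:**
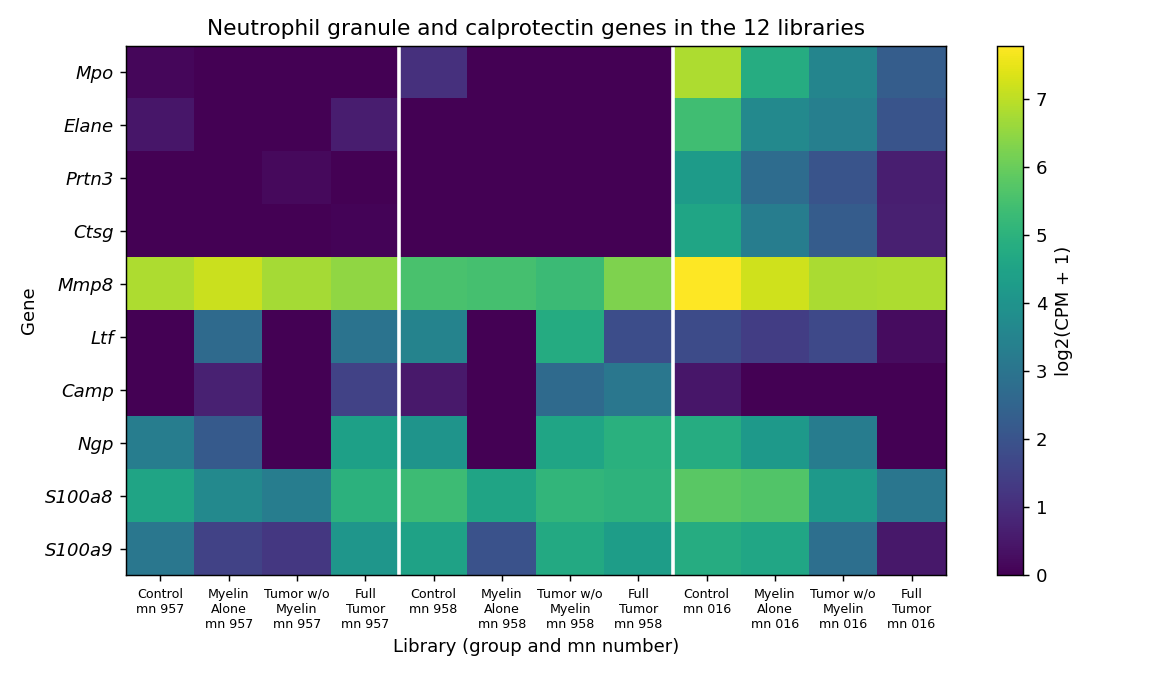
Level of each of the 10 genes (rows) in each of the 12 libraries (columns, ordered by mn number and separated by white lines), as log2(CPM + 1). The upper 4 rows, Mpo, Elane, Prtn3 and Ctsg, are bright in the 4 libraries of mn 016 and near 0 in the other 8, while Mmp8 is bright in all 12.

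The 4 primary granule genes were found almost entirely in the libraries of mn 016. Of their 5569 counts over all libraries, 5526 (99.2%) came from mn 016, 23 from mn 957 and 20 from mn 958. Within mn 016 the summed level was 193.5 CPM in Control, 53.5 CPM in Myelin Alone, 26.8 CPM in Tumor without Myelin and 8.08 CPM in Full Tumor. Each of the 4 genes followed that order. Outside mn 016 their counts were too few to show whether they moved together. Over those 8 libraries, Pearson r of log2(CPM + 1) was -0.15 for Mpo and Elane and -0.16 for Mpo and Prtn3. It was 0.77 for Elane and Ctsg, where Ctsg had 1 count, and most of these libraries were at 0.

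Mpo (ENSMUSG00000009350, chr11:87793581-87804413 on mm10) encodes myeloperoxidase, which makes hypochlorous acid from hydrogen peroxide and chloride. In mn 016 it had 2270 counts in Control (111.3 CPM), 490 in Myelin Alone (27.2 CPM), 175 in Tumor without Myelin (10.6 CPM) and 82 in Full Tumor (3.87 CPM). In mn 957 it had 2 counts in Control (0.11 CPM), in mn 958 it had 20 in Control (1.10 CPM), and in both numbers the 3 other groups were at 0. Control was the highest library of each number, but in mn 957 only by 2 counts, which is below the floor of 3. Each of the 4 libraries of mn 016 lay above every library of the other numbers. Such a separation was seen for Mpo, Elane, Prtn3 and Ctsg, 4 of the 10 genes, beside 8.12% of tested genes. These 4 were among the tested genes only through their levels in mn 016, so the separation is no independent result. Control 016 was the highest of all 12 libraries for these 4 and for Mmp8, S100a8 and S100a9, beside 9.54%. The group means were 37.5 ± 63.9 CPM in Control, 9.05 ± 15.7 in Myelin Alone, 3.54 ± 6.13 in Tumor without Myelin and 1.29 ± 2.24 in Full Tumor (SD, n = 3). Every SD exceeded its mean, and the 4 groups overlapped because each includes libraries of mn 957 and mn 958.

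Elane (ENSMUSG00000020125, chr10:79886247-79888215) encodes neutrophil elastase, a serine protease. Its counts in mn 016 were 834 in Control (40.9 CPM), 212 in Myelin Alone (11.8 CPM), 152 in Tumor without Myelin (9.23 CPM) and 64 in Full Tumor (3.02 CPM). Outside mn 016 it had 7 counts in Control 957 (0.37 CPM) and 10 in Full Tumor 957 (0.53 CPM) and was at 0 in the 6 other libraries. The group means ran from 13.8 ± 23.5 CPM in Control to 1.18 ± 1.61 CPM in Full Tumor (SD, n = 3), and the groups overlapped.

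Prtn3 (ENSMUSG00000057729, chr10:79874476-79883174), which encodes proteinase 3, lies next to Elane on chromosome 10. It had 375 counts in Control 016 (18.4 CPM), 104 in Myelin Alone 016 (5.76 CPM), 51 in Tumor without Myelin 016 (3.10 CPM) and 12 in Full Tumor 016 (0.57 CPM). Its only other counts were 3 in Tumor without Myelin 957. Ctsg (ENSMUSG00000040314, chr14:56099881-56102574) encodes cathepsin G, another serine protease of the same granules. Ctsg had 469 counts in Control 016 (23.0 CPM), 160 in Myelin Alone 016 (8.87 CPM), 63 in Tumor without Myelin 016 (3.82 CPM) and 13 in Full Tumor 016 (0.61 CPM), and 1 count in the 8 other libraries. Both proteases thus separated mn 016 from the other numbers without overlap and ranked its 4 groups alike. Mpo overlaps a gene on the opposite strand, Gm11505, and Prtn3 overlaps Plppr3. No strand setting is stated for the counting, so reads of these pairs cannot be told apart.

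**Figure D2:**
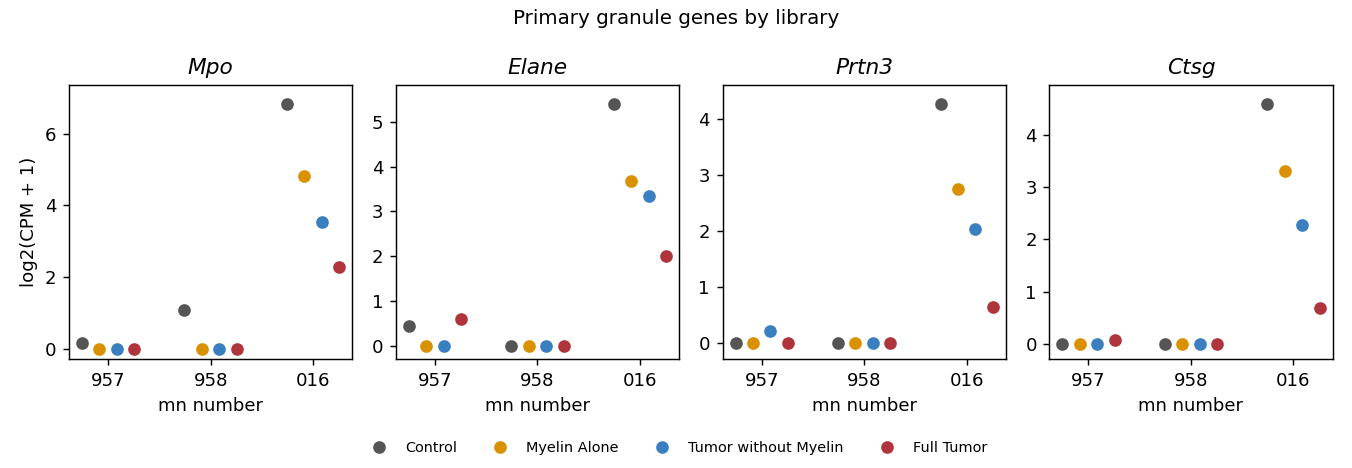
Level of the 4 primary granule genes as log2(CPM + 1), 1 point per library, by mn number on the horizontal axis and with the group shown by color. In mn 016 the points step down from Control to Full Tumor in each panel, and in mn 957 and mn 958 no point exceeds 1.10 CPM.

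The size of the step within mn 016 differed between the genes. Control exceeded Full Tumor 28.7-fold for Mpo (95% counting interval 23.0 to 36.3), 13.5-fold for Elane (10.5 to 17.7), 32.4-fold for Prtn3 (18.3 to 63.3) and 37.4-fold for Ctsg (21.7 to 70.9). The interval of Elane lay below those of Mpo, Prtn3 and Ctsg. Control exceeded Tumor without Myelin 10.5-fold for Mpo (8.98 to 12.3) and 4.43-fold for Elane (3.72 to 5.30), and it exceeded Myelin Alone 4.10-fold for Mpo (3.71 to 4.53) and 2.59-fold for Ctsg (2.16 to 3.12). These ratios compare single libraries and have no replicate check. The makeup of the primary granule counts also differed: Mpo made up 57.5% of these counts in Control (55.9 to 59.0, exact binomial), 50.7% in Myelin Alone, 39.7% in Tumor without Myelin (35.1 to 44.4) and 48.0% in Full Tumor (40.3 to 55.7). The share of Elane was 21.1% (19.9 to 22.4) in Control, 21.9% in Myelin Alone, 34.5% in Tumor without Myelin and 37.4% (30.2 to 45.1) in Full Tumor.

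**Figure D3:**
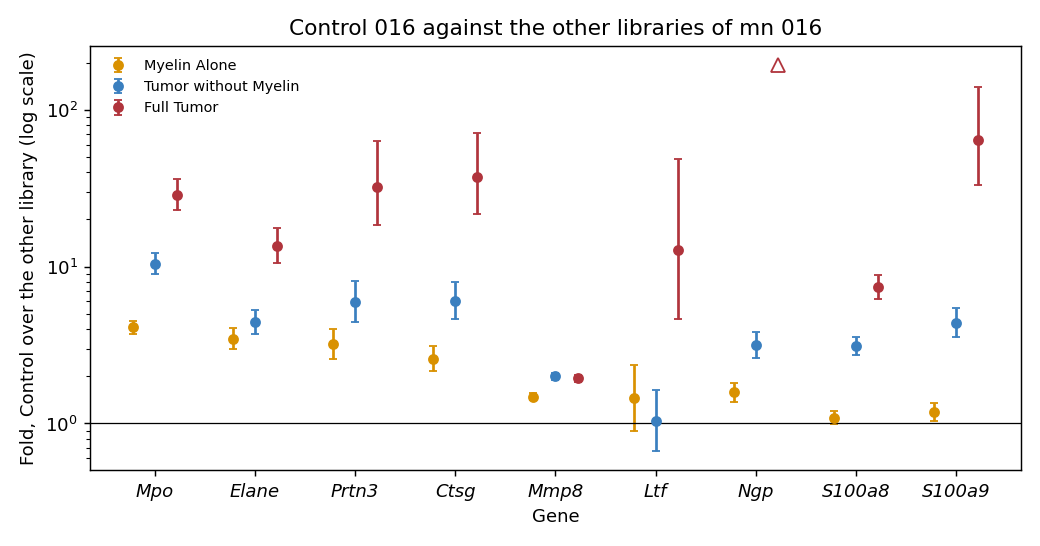
Ratio of the level in Control 016 to that in each other library of mn 016 (log axis), with 95% counting intervals as bars and color for the other library. The open triangle for Ngp is the ratio of 193 that takes the floor of 3 counts for a count of 0. Camp is left out because the 3 other libraries were at 0, and for Mpo, Elane, Prtn3, Ctsg, S100a8 and S100a9 the ratio grows from Myelin Alone to Tumor without Myelin to Full Tumor.

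Of the 10 genes, 7 (Mpo, Elane, Prtn3, Ctsg, Ngp, S100a8 and S100a9) ran Control, Myelin Alone, Tumor without Myelin, Full Tumor from highest to lowest in mn 016, an order shown by 5.47% of the 13414 genes tested there. The same order was shown by 0 of the 10 in mn 957, beside 3.45% of tested genes, and by 0 of the 10 in mn 958, beside 5.27%. Control was the highest library of mn 016 for all 10 genes, against 24.7% of tested genes, and Full Tumor was the lowest for 8 of them, against 21.8%. In mn 957 Control was the highest for 1 of the 10 and in mn 958 for 2, against 25.1% and 23.6%. This order was picked out after the values were seen, with 1 library per group, and was not tested. Other measures ran along with it: the percentage of counts from mitochondrially encoded genes was 0.287 in Control 016, 0.411 in Myelin Alone 016, 0.455 in Tumor without Myelin 016 and 0.557 in Full Tumor 016. Its part in the order was not tested.

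Mmp8 (ENSMUSG00000005800, chr9:7558456-7568485) encodes neutrophil collagenase, a metalloproteinase stored in specific granules, and was the member present in every library at a substantial level. Its levels in Control were 111.7, 45.4 and 218.4 CPM in mn 957, 958 and 016. They were 142.5, 43.4 and 147.3 CPM in Myelin Alone, 104.0, 38.5 and 109.2 CPM in Tumor without Myelin, and 89.6, 76.6 and 112.6 CPM in Full Tumor, in the same order of numbers. The libraries of mn 958 were the lowest of every group, and the groups overlapped. Group means were 125.2 ± 87.3 CPM in Control, 111.1 ± 58.7 in Myelin Alone, 92.9 ± 18.3 in Full Tumor and 83.9 ± 39.4 in Tumor without Myelin (SD, n = 3), so no neighbors in that order differed beyond their spread. Tumor without Myelin was below Control in all 3 numbers, as were 15.4% of tested genes. Per kilobase of annotated exon, Mmp8 averaged 42.6 CPM over the 12 libraries, close to S100a8 at 39.5, followed by S100a9 at 24.3, Ngp at 10.5, Elane at 5.57, Mpo at 3.75 and Ctsg at 2.93. Camp at 1.79, Ltf at 1.40 and Prtn3 at 1.35 CPM per kilobase were the lowest. In the single library Control 016, per kilobase levels reached 41.5 CPM for Elane and 32.5 CPM for Mpo.

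The other specific granule genes had counts in all 3 numbers. Ltf (ENSMUSG00000032496, chr9:111019271-111042767) encodes lactoferrin, which binds iron. In mn 957, 958 and 016 it stood at 0, 10.3 and 2.40 CPM in Control, at 5.42, 0 and 1.66 in Myelin Alone, at 0, 26.3 and 2.31 in Tumor without Myelin, and at 6.86, 2.57 and 0.19 in Full Tumor. Camp (ENSMUSG00000038357, chr9:109847379-109849617) encodes the cathelicidin precursor, an antimicrobial peptide. Camp was at 0 in 6 libraries and highest in Full Tumor 958 at 7.53 CPM, Tumor without Myelin 958 at 5.42 CPM and Full Tumor 957 at 1.90 CPM. In mn 016, where the primary granule genes were high, Camp had 8 counts in Control and 0 in the 3 other groups.

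Ngp (ENSMUSG00000032484, chr9:110419747-110423012) encodes neutrophilic granule protein, a cathelicidin relative. In mn 957, 958 and 016 it was at 8.89, 15.4 and 27.3 CPM in Control, at 3.63, 0 and 17.3 in Myelin Alone, at 0, 22.7 and 8.62 in Tumor without Myelin, and at 20.4, 29.7 and 0 in Full Tumor. Control 016 was at least 193-fold above Full Tumor 016, computed against a floor of 3 counts, with an exact 95% lower limit of 156. Full Tumor thus held both the highest library of the 12 and a library at 0, and all groups overlapped.

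S100a8 (ENSMUSG00000056054, chr3:90668978-90670035) and S100a9 (ENSMUSG00000056071, chr3:90692632-90695721) are neighbors on chromosome 3 and encode the 2 subunits of calprotectin, which binds calcium, zinc and manganese and is a ligand of TLR4. S100a8 was at 22.1, 39.0 and 53.8 CPM in Control in mn 957, 958 and 016. It was at 11.6, 22.4 and 49.3 CPM in Myelin Alone, at 8.88, 34.1 and 17.4 in Tumor without Myelin, and at 31.0, 31.8 and 7.27 in Full Tumor. S100a9 was at 7.40, 21.3 and 27.2 CPM in Control, at 1.90, 2.92 and 23.1 in Myelin Alone, at 1.39, 25.6 and 6.19 in Tumor without Myelin, and at 16.1, 18.9 and 0.43 in Full Tumor. Full Tumor was above Control in mn 957 for both genes and below it in the other numbers. The S100a8 group means were 38.3 ± 15.9 CPM in Control, 27.8 ± 19.4 in Myelin Alone, 23.4 ± 13.9 in Full Tumor and 20.1 ± 12.8 in Tumor without Myelin (SD, n = 3), each within the SD of its neighbor.

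Myelin Alone was below Control in all 3 numbers for Mpo, Ngp, S100a8 and S100a9, beside 12.2% of tested genes. Tumor without Myelin was below Control in all 3 numbers for Mpo, Mmp8 and S100a8, beside 15.4% of tested genes. Full Tumor was below Control in all 3 for Mpo only, beside 15.1%. For Mpo these counts rest on 2 counts in Control 957, below the floor. Within mn 016, Control exceeded Full Tumor 63.9-fold for S100a9 (33.4 to 140) and 7.40-fold for S100a8 (6.25 to 8.82), while Control and Myelin Alone differed 1.09-fold for S100a8, with a counting interval of 0.998 to 1.19.

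The ratio of the 2 calprotectin transcripts was not constant. S100a9 made up 25.1%, 35.4% and 33.5% of their summed counts in Control in mn 957, 958 and 016, and 34.2%, 37.3% and 5.52% in Full Tumor. In Myelin Alone the shares were 14.1%, 11.5% and 31.9%, and in Tumor without Myelin 13.5%, 42.9% and 26.3%. The lowest share, 9 of 163 counts in Full Tumor 016, had an exact 95% interval of 2.56 to 10.2, and the highest, in Tumor without Myelin 958, of 39.9 to 46.0. In each number the library with the lowest S100a9 level also had the lowest S100a9 share.

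One library of each number stood low for the later genes other than Mmp8, and it belonged to another group each time. Mmp8 was instead lowest in Full Tumor 957 (89.6 CPM), Tumor without Myelin 958 (38.5 CPM) and Tumor without Myelin 016 (109.2 CPM). Tumor without Myelin 957, Myelin Alone 958 and Full Tumor 016 were the lowest of their number, ties at 0 included, for Ltf, Camp, Ngp, S100a8 and S100a9. Mpo was also among such genes, through ties at 0, which makes 6 of the 10 beside 1.07% of tested genes. Ngp was at 0 in exactly these 3 libraries, where a neighboring group of the same number held 387 counts (Full Tumor 957), 520 counts (Full Tumor 958) and 557 counts (Control 016). The 3 libraries were singled out after their values were seen, and no test was made. Their totals of 19469186, 17571197 and 21689624 counts lay within the range of the other libraries or, for Full Tumor 016, at its top.

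**Figure D4:**
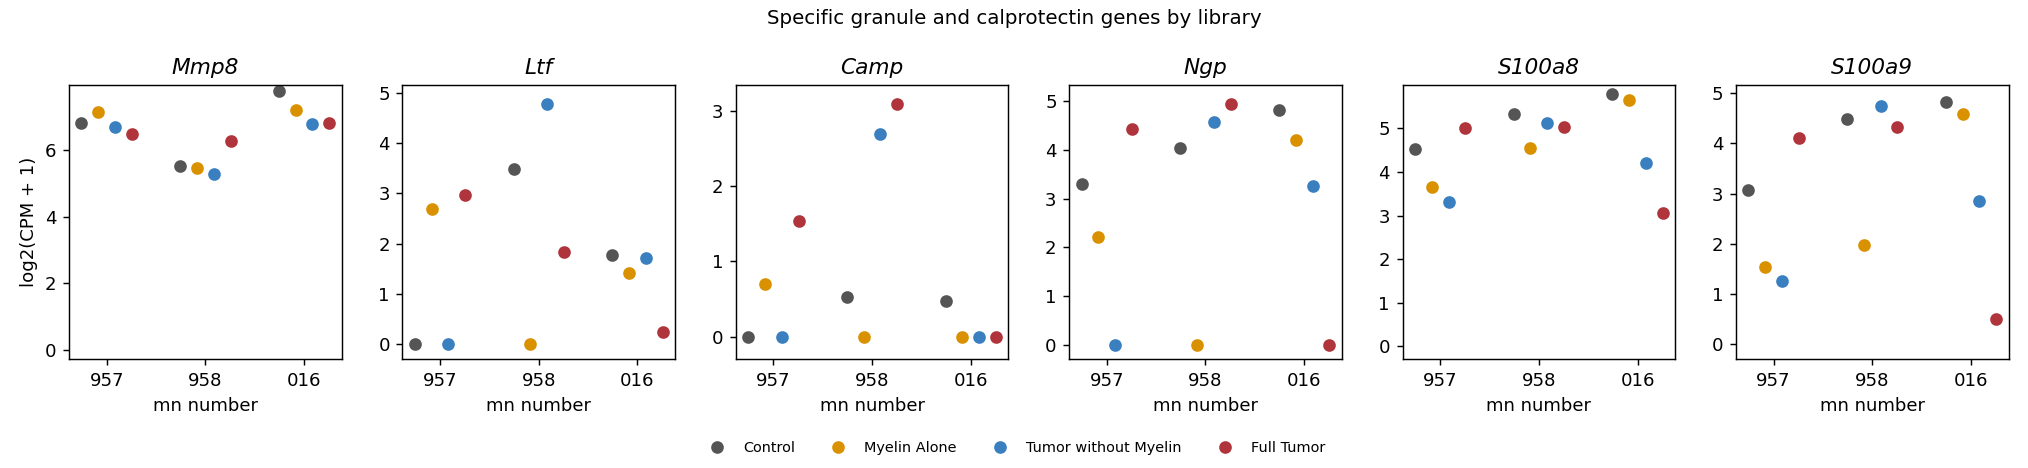
Level of Mmp8, Ltf, Camp, Ngp, S100a8 and S100a9 as log2(CPM + 1), 1 point per library, by mn number and colored by group. The lowest point for Ngp, S100a8 and S100a9 is Tumor without Myelin in mn 957, Myelin Alone in mn 958 and Full Tumor in mn 016.

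The group comparisons were tested with edgeR's quasi-likelihood test on all 12 libraries, with p-values adjusted by the Benjamini-Hochberg method over 13414 genes. All 10 members passed the filter on low counts. Mpo, Elane, Prtn3 and Ctsg passed it through mn 016. Outside that number they reached at most 1.10, 0.53, 0.15 and 0.053 CPM. With group as the only term, 0 of the 10 genes passed an adjusted p of 0.05 for Myelin Alone, Tumor without Myelin or Full Tumor against Control, or for Full Tumor against Tumor without Myelin, beside 0% of tested genes in each. For the effect of tumor material (the 2 tumor groups against the 2 others), 0 of 10 passed, beside 0.0745% of tested genes, and for the effect of myelin (Myelin Alone and Full Tumor against the 2 others) 0 of 10, beside 0%. In these 6 comparisons 0 of the 10 also had an unadjusted p under 0.05, and DESeq2 called 0 of 10. The median log2 change of the 10 genes was -1.15 in Myelin Alone, -0.84 in Tumor without Myelin and -0.69 in Full Tumor against Control, beside 0.01, 0.01 and 0.00 over all tested genes. The 3 comparisons share the Control libraries. Among these, Control 016 was the highest of the 12 for Mpo, Elane, Prtn3, Ctsg, Mmp8, S100a8 and S100a9. With the mn number added as a term the medians were -1.15, -0.99 and -0.42. The Mpo change in Full Tumor was -4.82 ± 2.86 (log2, SE), and that of S100a8 -0.71 ± 0.65, S100a9 -0.66 ± 1.23 and Mmp8 -0.43 ± 0.57. The fitted changes of genes with libraries at 0 are no bounds.

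Libraries of the same number deviated together, so the fit was repeated with the mn number as a replicate block, and this changed the calls of 1 gene. Mpo was lower in Tumor without Myelin than in Control, with a log2 change of -3.80 ± 0.56 (SE, edgeR adjusted p = 0.0128). It was lower in Full Tumor than in Control, at -5.19 ± 0.62 (edgeR adjusted p = 0.0046), and lower with tumor material, at -3.22 ± 0.41 (edgeR adjusted p = 0.0022). Beside these calls, 0.745%, 0.813% and 2.25% of tested genes were called, and 0.186%, 0.179% and 0.626% as lower. Against Control, Myelin Alone gave -2.56 ± 0.51 with an edgeR adjusted p of 0.21 (0.0373% of tested genes called), and the myelin effect gave -1.98 ± 0.39 with 0.115 (0.112% called). Full Tumor against Tumor without Myelin gave -1.39 ± 0.58 with an adjusted p of 1.00, where 0% of genes were called. Mpo was below Control in 3 of 3 numbers, but in mn 957 and mn 958 the lower groups were at 0 against 2 and 20 counts, so the fitted sizes rest on mn 016. In the blocked fit the Full Tumor call was lost without Full Tumor 016, mn 957 or mn 016. The call in Tumor without Myelin was lost without Control 957, Control 016, Tumor without Myelin 016, mn 957 or mn 016. The call for tumor material was lost without Myelin Alone 016, Full Tumor 016, mn 957 or mn 016. Run on all 12 libraries with no filter on low counts, an alternative chosen after seeing the data, the blocked fit called Mpo in the same 3 comparisons (0.76%, 0.72% and 1.67% of genes called), and also in Myelin Alone against Control (0.0809%) and for myelin (0.194%). Ctsg, at -4.44 ± 1.31, and Prtn3, at -4.48 ± 1.37 in Full Tumor against Control, did not pass (edgeR adjusted p = 0.256 and 0.275).

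More of the 10 genes passed the test between mn 016 and the other numbers than between groups, as did more of all tested genes. This held for the groups with and without the mn number as a block. In the fit with group and number, 4 of the 10 genes were higher in mn 016 than in mn 957 after edgeR adjustment and 0 lower, beside 15% of tested genes called. Of all tested genes, 8.47% were called as higher and 6.5% as lower. The 4 genes were Mpo (edgeR adjusted p = 1.14e-05), Ctsg (0.0016), Prtn3 (0.0042) and Elane (0.0059). They had passed the filter on low counts through their levels in mn 016, so these calls are not independent of the filter. Against mn 958, 5 of the 10 were higher and 0 lower, beside 38.6% of tested genes called, 21% as higher and 17.5% as lower: the same 4 genes, with a log2 difference for Mpo of 7.48 ± 0.48 (edgeR adjusted p = 7.33e-06), and Mmp8, with 1.50 ± 0.25 (adjusted p = 0.000829). In pooled counts, mn 016 exceeded mn 958 142-fold for Mpo (91.5 to 232) and at least 395-fold for Elane, 170-fold for Prtn3 and 221-fold for Ctsg, taking a floor of 3 counts over the 4 libraries. The exact 95% lower limits were 321 for Elane, 137 for Prtn3 and 179 for Ctsg. Control 016 carried much of these ratios: without it, in an alternative chosen after seeing the data, mn 016 exceeded mn 958 47.9-fold for Mpo and at least 183-fold for Elane, 71.4-fold for Prtn3 and 101-fold for Ctsg. Control 958 held all the Mpo counts of mn 958, and without it the Mpo ratio was at least 703. Against mn 957 the ratio was 74.3 for Elane (46.2 to 128), and for Mpo, Prtn3 and Ctsg it rested on 2, 3 and 1 counts and was 1510.5 (418 to 12478), 181 (61.6 to 880) and 706 (126 to 27922). Without Control 016 these ratios to mn 957 were 34.4 for Elane, 511 for Mpo, 76.2 for Prtn3 and 323 for Ctsg. Leaving out Full Tumor 957 gave 136 for Elane and at least 177 for Ctsg. For Mpo the ratio was at least 759 without Control 957. Between mn 958 and mn 957, 1 of the 10 passed, beside 7.42% of tested genes, 4.82% as lower: Mmp8, with a log2 difference of -1.14 ± 0.24 (edgeR adjusted p = 0.0247). That call was lost on leaving out any 1 of the Control, Myelin Alone or Tumor without Myelin libraries of these numbers. Ltf, Camp, Ngp, S100a8 and S100a9 did not pass in any comparison of numbers.

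Whether the effect of tumor material differed between the numbers was tested with an interaction term. That fit had no term for myelin, so libraries with and without myelin were taken as the 2 replicates of each combination. 0 of the 10 genes passed by edgeR, beside 0.194% of tested genes, and 0 passed by DESeq2. Unadjusted p was under 0.05 for 2 genes, S100a8 (F = 5.78, edgeR adjusted p = 0.472) and Mmp8 (F = 4.24, adjusted p = 0.557). Without the filter on low counts 5 of 10 were called (Camp, Mmp8, Ngp, S100a8 and S100a9), beside 1.97% of all genes. Those calls depend on the filter: for S100a9 the edgeR adjusted p was 0.608 with it and 2.9e-14 without it.

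Levels of related genes were read from other lists, with the counts of members that differed by edgeR in mn 016. Of all tested genes, 8.47% were called higher and 6.5% lower against mn 957, and 21% higher and 17.5% lower against mn 958, and each list's counts stand beside these shares. Of the 12 tested other granule genes, 3 were higher and 1 lower against mn 957, and 6 were higher and 1 lower against mn 958. Chil3, a chitinase-like lectin, was higher at a mean of 62.4 CPM in mn 016, 13.6 in mn 957 and 16.7 in mn 958. Serpinb1a, an inhibitor of neutrophil serine proteases including elastase, averaged 7.65, 0.167 and 0.705 CPM in the same order (edgeR adjusted p = 0.0056 and 0.0088). Ms4a3, another gene of this list, averaged 3.37, 0.24 and 0 CPM. Genes this low outside mn 016 passed the filter on low counts through that number. Their calls, here and in the lists below, are therefore not independent of the filter. Lyz2, lysozyme, which macrophages also make, was at 6551 to 10483 CPM and was lower in mn 016 than in mn 958, with a log2 difference of -0.34 (edgeR adjusted p = 0.0013).

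Markers of immature marrow cells differed between the numbers in both directions. Cd34 averaged 38.9 CPM in mn 016, 1.88 in mn 957 and 5.56 in mn 958, and Kit, the stem cell factor receptor, averaged 6.10, 0.291 and 0.84 CPM. Of 6 tested progenitor markers, 2 were higher and 1 lower (Sox4) against mn 957, beside 15% of all tested genes called. Against mn 958, 2 were higher and 2 lower (Sox4 and Ctla2a), beside 38.6% called. Over the whole progenitor list, of which 8 of 9 genes were in the table, the summed level was 40.0 to 66.8 CPM in mn 016, 17.5 to 25.1 in mn 957 and 31.0 to 37.6 in mn 958. By group it was 17.5 to 40.0 CPM in Control, 17.9 to 58.8 in Myelin Alone, 25.1 to 66.8 in Tumor without Myelin and 22.5 to 58.5 in Full Tumor. Control 016 had the lowest sum of its number, largely through Cd34, at 24.6 CPM there and 40.9 in Full Tumor 016. Sox4, Cd27 and Ctla2a were also lower in Control 016 than in Full Tumor 016. Kit (7.11 and 3.97 CPM), Myb (1.03 and 0) and Gata2 (2.21 and 2.13) were higher. The 16 proliferation genes summed to 1327 to 2439 CPM in mn 016, against 616 to 762 in mn 957 and 715 to 1041 in mn 958, and 15 of 16 were higher in mn 016 against each. The part of these markers in the primary granule levels was not tested.

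Transcription factors and mature neutrophil genes were counted in the same way. Of 6 tested granulocyte transcription factors, 0 were higher in mn 016, 2 were lower against mn 957, beside 6.5% of all tested genes, and 4 against mn 958, beside 17.5%. Spi1, which encodes PU.1, averaged 564 CPM in mn 016, 657 in mn 957 and 674 in mn 958. Cebpa averaged 41.2, 74.3 and 108.3 CPM (edgeR adjusted p = 0.0020 against mn 957). Cebpe, named for its role in specific granule genes although it was outside the rule for named genes, was at 0.0551 to 0.776 CPM. Of 12 tested mature neutrophil genes, 4 were higher and 2 lower in mn 016 against each other number, beside 15% of all tested genes called against mn 957 and 38.6% against mn 958. Csf3r, the G-CSF receptor, was lower at 23.3 CPM, against 49.6 and 51.3, and Padi4, which citrullinates histones, was higher at 13.3 CPM, against 2.40 and 2.42. Cxcr2, a neutrophil chemokine receptor, reached 2.99 CPM at most, in Control 016. Among 15 tested macrophage markers, 2 were higher and 4 lower in mn 016 against mn 957, beside 15% of all tested genes called. Against mn 958, 3 were higher and 9 lower, beside 38.6% called.

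**Figure D5:**
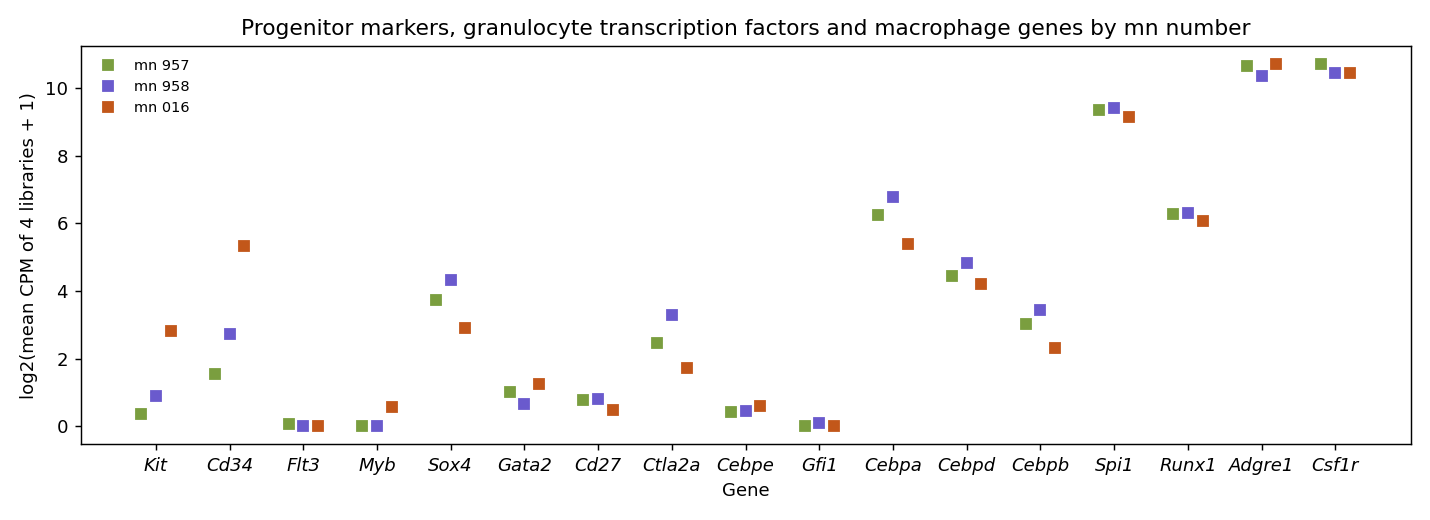
Mean level over the 4 libraries of each mn number, as log2(mean CPM + 1), of the 8 progenitor markers in the table (Kit to Ctla2a), the other granulocyte transcription factors (Cebpe to Runx1) and the macrophage genes Adgre1 and Csf1r, with color for the number. Kit and Cd34 are higher in mn 016, Sox4, Ctla2a and Cebpa are lowest there, and Csf1r and Adgre1 lie close together in all 3 numbers.

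Receptors and inhibitors that act on these proteins were measured as well. Of 13 tested, 4 were higher and 4 lower in mn 016 against mn 957, and 4 higher and 6 lower against mn 958, beside 15% and 38.6% of all tested genes called. Tlr4, a receptor for calprotectin, averaged 80.2 CPM in mn 016, 43.9 in mn 957 and 31.1 in mn 958 (edgeR adjusted p = 0.0168 and 0.0004). Cd36, a scavenger receptor, averaged 3418, 2153 and 1685 CPM, and Cst3, cystatin C, 1381, 1815 and 2182 CPM. Among the S100 calcium-binding genes, 1 of 9 tested differed from mn 957 and 2 of 9 from mn 958, beside 15% and 38.6% of all tested genes. S100a1 was lower in both comparisons, while S100a8 and S100a9 passed in neither.

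The genes most like Mpo over the 12 libraries, by Pearson r of log2(CPM + 1) among 11530 genes with a mean of at least 1 CPM, were Plaur (r = 0.966), Elovl1 (0.938), Cpa3 (0.937), Gcsh (0.935) and Ms4a3 (0.933). Plaur, the urokinase receptor, ranged from 156 to 389 CPM and was highest in Control 016. Cpa3, a mast cell and basophil protease, had 8.58 CPM in Control 016 and at most 0.114 CPM outside mn 016. Ms4a3, a marker of granulocyte-monocyte progenitors, had 7.50 CPM in Control 016, 0.189 CPM in Full Tumor 016 and at most 0.958 CPM outside mn 016. Mpo was at 0 in 6 libraries and high only in mn 016, so this ranking rests on the libraries of that number. Cpa3 and Ms4a3 reached the mean of 1 CPM only through them. For S100a8 the most similar were Gm9844 (r = 0.862), Etfb (0.852), St3gal1 (0.827), S100a10 (0.823) and Mrps15 (0.822). These values describe the libraries, which share mn numbers, and carry no test.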

How the data were processed

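Per the labels' protocols, column-purified, DNase-treated RNA of the sorted macrophages was reverse transcribed from oligo-dT with template switching. The authors deposited whole-number counts per gene, with symbol, Ensembl identifier and mm10 position, per the file headers; mm10 is also the build in the submitters' processing notes. Aligner, counter and strandedness: not given in the sources used here. All 12 value columns matched a sample. Libraries held 17071673 to 21689624 counts.

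From these counts, edgeR 4.0.16 (R 4.3.3) was run on the whole table with TMM factors, filterByExpr, glmQLFit and glmQLFTest, two-sided, with Benjamini-Hochberg adjustment over 13414 genes at 0.05. Group was the only term for group comparisons, group and mn number for comparisons of numbers. Standard errors are the size of the log2 change over the root of the F statistic. Ratios of counts carry exact (Clopper-Pearson) 95% intervals. Alternatives were DESeq2 1.42.0, other scaling, no low-count filter, a replicate block, and each library or number left out. The numbers pair the libraries: over all genes tested, deviations from group means correlated above 0.1 in 18 of 18 same-numbered pairs (0.145 to 0.771). No 2 libraries of a group agreed within counting noise. The test was checked on simulated counts.

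Named genes are the 10 members, up to 4 of each other list by mean level plus up to 2 called ones, and the 5 genes most similar to Mpo and to S100a8. Cell identity markers and genes in the marker plot were added. The members and lists were chosen with earlier results of these data known. Exon lengths are unions of GENCODE M21 exons, promoters RefSeq windows on GRCm38.p6.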

Additional observations from a re-analysis of the deposited data

How the results depend on the processing

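With the mn number as a replicate block, 1 of the 10 genes (Mpo) was called for Tumor without Myelin and for Full Tumor against Control and for tumor material, against 0 without it. The block together with each library or number left out, or with no low-count filter, was chosen after seeing the data. It gave 0 to 1 called on leaving out a library or number for these 3 comparisons, and 1 without the filter for the same 3, for Myelin Alone against Control and for the myelin effect. The block changed no other call of a member. For mn 958 against 957, leaving out a library gave 0 to 1. The interaction of tumor material with number gave 5 without the filter (Camp, Mmp8, Ngp, S100a8 and S100a9) and 0 with it. The calls for mn 016 stayed at 4 against mn 957 and at 5 to 6 against mn 958 under every alternative run.

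Fitted changes of genes that are not called depend on single libraries: 53 of 60 group changes and 9 of 30 between numbers changed sign under at least 1 alternative. Without the block, leaving out 1 library or number moved Mpo between -12.43 and 1.09 in Full Tumor, -12.46 and 3.87 in Myelin Alone, and -12.47 and 2.53 in Tumor without Myelin, each against Control. It ranged from -9.01 to 7.63 in Full Tumor against Tumor without Myelin, from -7.62 to 2.11 for tumor material and from -6.94 to 2.79 for myelin. The positive values came without Control 016 (1.22 for myelin), Myelin Alone 016 or Tumor without Myelin 016. Full Tumor against Control ranged from -0.83 to 0.23 for Mmp8, -1.26 to 0.043 for S100a8 and -1.34 to 0.29 for S100a9, positive without mn 016 (0.082 for Mmp8) and, for Mmp8, without Control 016. With the block, positive values were 0.94 for Mpo in Full Tumor against Tumor without Myelin without Tumor without Myelin 016, and in Full Tumor against Control without mn 016 they were 0.29 for Mmp8, 0.16 for S100a8 and 0.60 for S100a9. Without Full Tumor 016 these 3 were 0.083, 0.15 and 0.77. Mmp8 was at 0.17 without Control 016 and 0.037 without Full Tumor 957, and S100a9 at 0.016 without Control 016 and 0.031 without Full Tumor 958. The cause was not tested. Depth limits the primary granule genes outside mn 016, where counts were 0 to 20.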
